A study of Canis lupus familiaris with 7 samples.

Results

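Genes of macrophages, 10 in all, were followed in canine osteosarcoma (OSA) and non-tumor bone: the receptors *CD68*, *CD163*, *MRC1*, *MSR1*, *MARCO* and *CD14*, the growth factor receptor *CSF1R* with its ligand *CSF1*, and the complement chain genes *C1QA* and *C1QB*. They were taken by symbol from the table of expression values, which lists 24580 genes, and 8 of the 10 symbols were found. *MRC1* and *CD14* had no row under these symbols and were not analysed here. The values came from 7 samples of dogs, namely 4 of grossly non malignant bone (N1, N3, N8 and N9, the non-tumor group) and 3 of osteosarcoma (T1, T3 and T10, the OSA tumor group), taken at amputation or after euthanasia, with the diagnosis made by histopathology. The bone was cut from next to the tumor, no treatment is listed for either group, and age, breed and site of the lesion are not given for the sequenced samples. The labels call the bone matched but do not say which samples share a dog, so the groups were compared without pairing, and the p-values measure the spread between these 7 samples.

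Macrophages are phagocytes that arise from blood monocytes or from cells seeded in the tissue before birth. Their survival depends on CSF1R, a receptor tyrosine kinase that binds CSF1 and IL34, and osteoclasts, which resorb bone, come from the same lineage and need the same receptor. Scavenger receptors on their surface take up modified lipoproteins, dying cells and hemoglobin, while C1q, assembled from the products of *C1QA*, *C1QB* and *C1QC*, starts the classical complement pathway and is made largely by macrophages. In marrow, macrophages that carry CD163 sit at the centre of islands of maturing red cells.

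Expression was given in FPKM, a fragment number divided by transcript length and by library size, so that levels of different genes can be set side by side. Tumor was compared with non-tumor on the log2(FPKM + 1) scale by limma, over all 13507 genes averaging 1 FPKM or more, and a gene passed if it differed by 2-fold or more and its unadjusted p was below 0.05. The table holds no counts, but the steps between its lowest values gave the fragments behind a given FPKM relative to N1, which ran from 0.546 in N8 to 1.45 in T10. Summed over all genes, FPKM ran from 539648 in N1 to 1.75e+06 in N8, with 1.12e+06 in T1 and 582283 in T10. Orders and ranges of samples below are those of the deposited FPKM, not of values rescaled to the same sum. The non-tumor samples differed in makeup. The 9 matched markers of skeletal muscle summed to 75843 FPKM in N8, 47002 in N9, 1308 in N3 and 77.0 in N1, the 10 matched markers of granulocytes to 60667 in N3 and 67902 in N8 against 729 in N1 and 2079 in N9, and the 9 matched markers of osteoblasts and bone matrix to 7471 in N1 against 162 to 1723 in the other non-tumor samples. In OSA tumor the same sums were 6.13 to 8.57 FPKM for muscle, 126 to 2026 for granulocytes and 1962 to 12761 for osteoblasts. *CKM*, a creatine kinase of muscle named after its values were seen, was listed at 0 in N9 and at 35044 FPKM in N8, while 6 of the 9 muscle markers were highest in N9. By limma 9 of 9 muscle markers passed as lower in tumor, where 3.58% of all tested genes did, and 1 of 9 osteoblast markers as higher, where 3.28% did.

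None of the 8 genes passed between OSA tumor and non-tumor bone (0 of 8 by limma, 0 also at an unadjusted p under 0.05 alone), where 6.86% of all tested genes passed, 3.28% as higher and 3.58% as lower in tumor. By limma 927 of the 13507 tested genes had an unadjusted p under 0.05 and 0 an adjusted p under 0.05. All 8 were among the genes tested, 3 with a positive and 5 with a negative log2 fold change. Their median was -0.21, beside -0.02 over all genes tested. The groups overlapped in all 8, while they did not overlap in 5.85% of all tested genes. Permuting the group labels in all 35 ways (exact permutation, two-sided, on mean log2 values) gave p from 0.286 (*MSR1*) to 0.971 (*CD68*), with 0.0571 the smallest this design allows, and the adjusted p over all genes tested lay between 0.768 and 0.964 by limma. What differed was the sample in which each gene was highest: N3 or N8 for *CD163*, *C1QA* and *C1QB*, T1 for *CD68*, *CSF1R* and *CSF1*, T10 for *MSR1* and T3 for *MARCO*. These are bulk samples, in which fewer macrophages and less RNA per macrophage cannot be told apart.

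**Figure D1:**
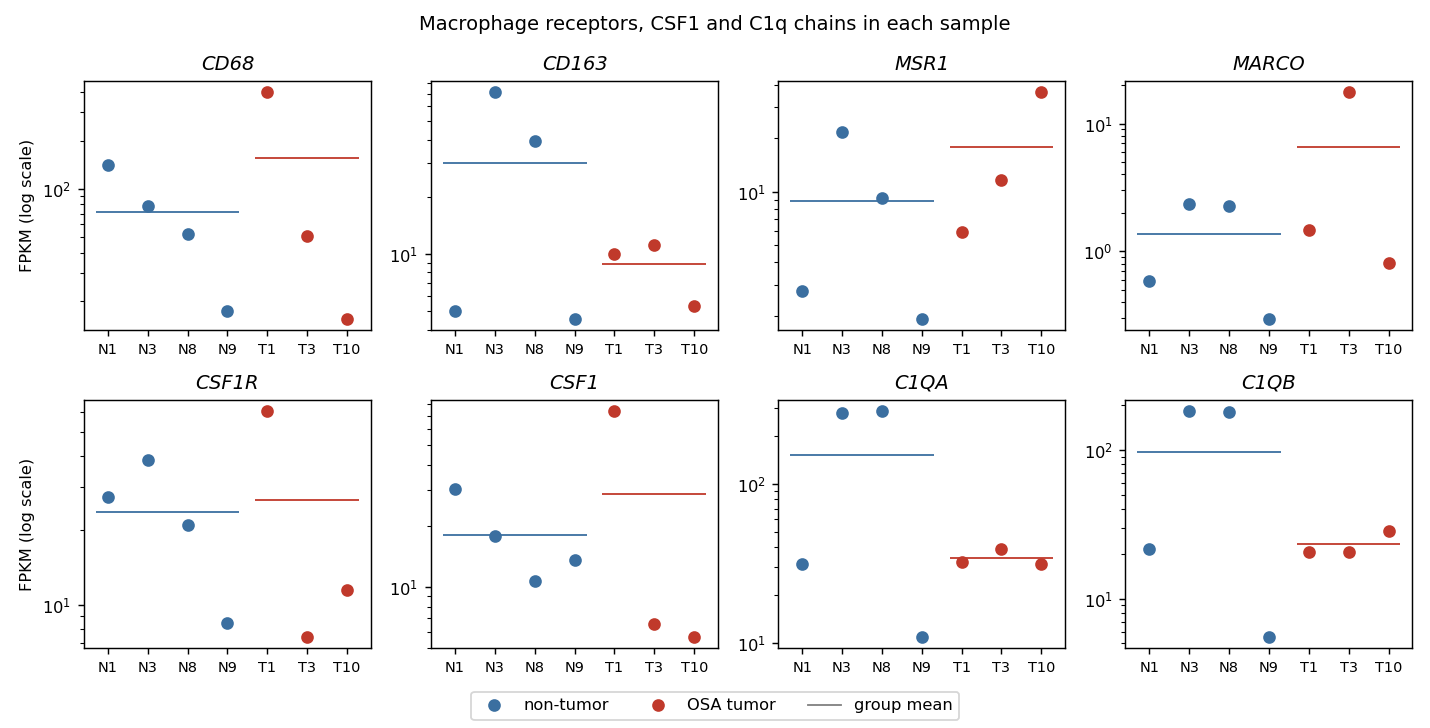
FPKM of the 8 genes (log y axis, 1 panel a gene) in the 4 non-tumor samples (blue) and the 3 OSA tumor samples (red), with the arithmetic mean of each group as a line. C1QA and C1QB stood highest in N3 and N8, CD68, CSF1R and CSF1 in T1, MSR1 in T10 and MARCO in T3.

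The C1q chains recognise antibody bound to antigen as well as dying cells, and both chain genes showed the widest spread of the 8 within non-tumor bone. *C1QA* (ENSCAFG00000031290, chromosome 2 from 76667676 to 76670143 in CanFam3.1) was at 31.4 FPKM (N1), 278 (N3), 287 (N8) and 10.95 (N9) in bone and at 32.3 (T1), 39.3 (T3) and 31.6 (T10) in tumor. In the deposited scaling the 3 tumors thus lay within 1.24-fold of each other, between both high and both low bone samples. The bone values spanned 26.2-fold. The mean in non-tumor bone was 152 ± 151 FPKM (SD, n = 4), and that in OSA tumor was 34.4 ± 4.24 FPKM (SD, n = 3). On the log2 scale tumor differed by -1.08 (SE, the standard error, 1.07, limma, unadjusted p = 0.338) with a 95% interval from -3.50 to 1.33. The interval leaves room for a level 11.3-fold lower or 2.52-fold higher in tumor.

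*C1QB* (ENSCAFG00000032344, chromosome 2 from 76649363 to 76655660) was at 21.5 FPKM (N1), 183 (N3), 179 (N8) and 5.51 (N9) in bone and at 20.6 (T1), 20.5 (T3) and 28.5 (T10) in tumor. Again N3 and N8 stood above every tumor and N9 below every tumor, and N1 fell inside the tumor range. Its log2 fold change was -0.97 (SE 1.10, limma, unadjusted p = 0.400), from 97.3 ± 96.9 FPKM (SD, n = 4) in bone to 23.2 ± 4.59 FPKM (SD, n = 3) in tumor. Both chains depended on N9: without it *C1QA* passed at -1.96 and *C1QB* at -1.92, and without N3 or N8 they lay between -0.45 and -0.32. *C1QC*, the gene of the remaining chain, lies between them in a cluster of 20781 bases (chromosome 2 from 76649363 to 76670143). It was at 38.4 FPKM (N1), 311 (N3), 274 (N8) and 9.52 (N9) in bone and at 41.2 (T1), 33.7 (T3) and 44.2 (T10) in tumor, a log2 fold change of -0.93 that did not pass but did, at -1.89, without N9.

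The C1q protein holds its 3 chains in equal number, and their transcripts kept a narrow ratio while the level of *C1QB* differed 33.2-fold among the bone samples alone. Per length, *C1QB* was at 0.499 (T1) to 0.654 (N8) times the level of *C1QC*, a range of 1.31-fold over the 7 samples. The level of *C1QA* was 1.11 (T10) to 1.99 (N9) times that of *C1QB*, a range of 1.79-fold. A ratio of FPKM within a sample does not depend on the scaling between samples. For the test each ratio was taken as a difference of log2(FPKM + 1). Neither differed between the groups beyond its spread: the mean log2 ratio of *C1QA* to *C1QB* was 0.67 ± 0.15 (SD, n = 4) in bone and 0.56 ± 0.38 (SD, n = 3) in tumor (two-sided exact permutation test, p = 0.686, adjusted p = 0.914 over the 4 ratios tested), and that of *C1QB* to *C1QC* was -0.72 ± 0.09 (SD, n = 4) and -0.76 ± 0.19 (SD, n = 3) (exact permutation p = 0.686, adjusted p = 0.914). The sign of the first difference turned without T10 (0.10) and that of the second without T1 (0.07).

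**Figure D2:**
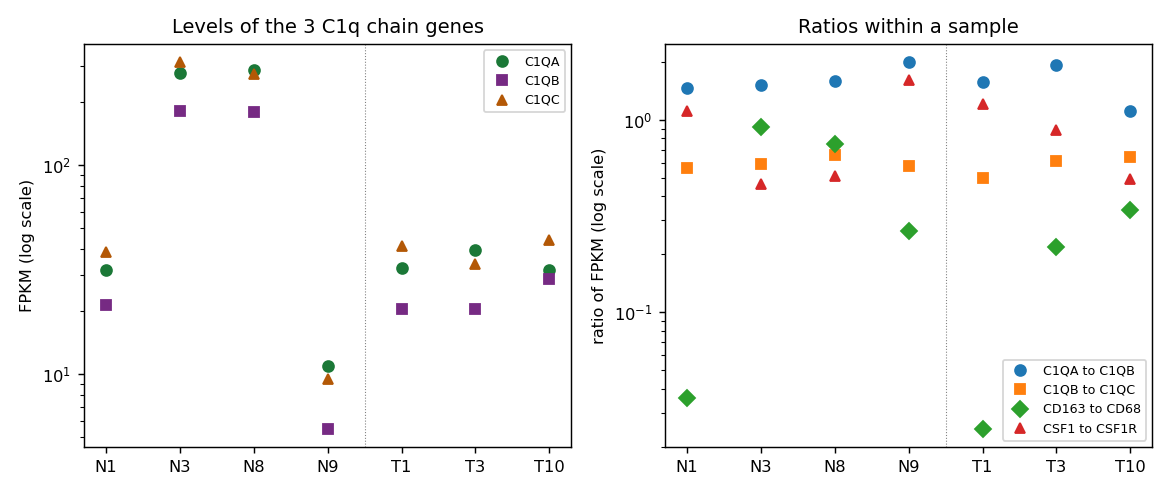
Left, FPKM of C1QA, C1QB and C1QC (log y axis) in each sample; right, the 4 ratios of FPKM within a sample (log y axis), with non-tumor samples left and OSA tumor samples right of the dotted line. The C1q chains moved together from N9 to N3 and N8, while the ratio of CD163 to CD68 spanned 36.8-fold.

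Of the remaining complement genes, 6 of 8 symbols were matched and tested, and 0 passed, where 6.86% of all tested genes did. All 6, *C1QC* among them, had negative log2 fold changes, with a median of -0.69. *C3*, whose product is the step at which the complement pathways meet, was at 4.62 FPKM (N1), 78.0 (N3), 45.3 (N8) and 9.17 (N9) in bone and at 0.823 (T1), 13.1 (T3) and 3.02 (T10) in tumor. Its log2 fold change of -2.19 (SE 1.02, limma, unadjusted p = 0.0590) did not pass, although it did without N1 (-2.83), N9 (-2.55) or T3 (-2.98) and with pseudocounts of 0.1 (-2.56) or 0.01 (-2.62).

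*CD163*, the receptor by which macrophages clear hemoglobin bound to haptoglobin, had the pattern closest to the C1q chains among the 8 genes. It lies on chromosome 27 from 37669631 to 37700814 (ENSCAFG00000013968) and was at 5.02 FPKM (N1), 71.1 (N3), 39.3 (N8) and 4.57 (N9) in bone and at 9.95 (T1), 11.2 (T3) and 5.29 (T10) in tumor. Every tumor lay between the low pair (N1, N9) and the high pair (N3, N8). Tumor differed from bone by a log2 fold change of -0.91 (SE 0.93, limma, unadjusted p = 0.353), with a 95% interval from -2.99 to 1.18. It stayed negative without any single sample, from -1.46 without N9 to -0.23 without N3.

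N3 and N8, where *CD163* and the C1q chains were high, were also the samples with the most blood-forming cells by marker. All 10 matched erythroid markers were highest in N3 or N8. They summed to 3425 FPKM (N3), 5475 (N8), 7.34 (N1) and 203 (N9) in bone and to 3.41 (T1), 11.2 (T3) and 79.2 (T10) in tumor. T1 listed *SLC4A1*, *HBM*, *CA1* and *RHAG* at 0, T3 *SLC4A1* and N1 *CA1*. By limma 7 of the 10 erythroid and 7 of the 10 tested granulocyte markers passed as lower in OSA tumor, where 3.58% of all tested genes did. All 10 of each list had negative log2 fold changes, with medians of -3.88 and -4.69, and *CTSG* was listed at 0 in T10. The part of these cells in the C1q and *CD163* values was not tested.

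**Figure D3:**
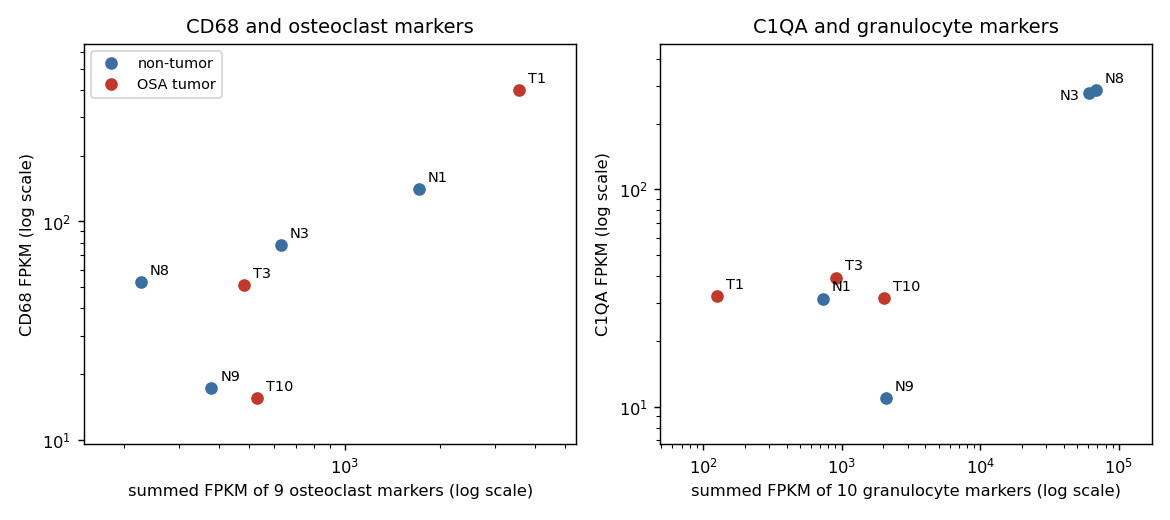
Each point is 1 sample (blue, non-tumor; red, OSA tumor), on log axes. Left, CD68 FPKM against the summed FPKM of 9 osteoclast markers, where T1 and N1 are highest on both; right, C1QA FPKM against the summed FPKM of 10 granulocyte markers, where N3 and N8 stand together at the top.

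*CD68*, a heavily glycosylated protein of lysosomes in macrophages and osteoclasts, was highest in T1. It was at 140 FPKM (N1), 77.7 (N3), 52.5 (N8) and 17.3 (N9) in bone and at 400 (T1), 50.9 (T3) and 15.5 (T10) in tumor (ENSCAFG00000016641). T1 held 53.0% of the sum over the 7 samples and was 2.85 times N1, the next. Tumor thus had both the highest and the lowest sample in the deposited scaling, 25.8-fold apart, and all of the bone samples lay between them. The log2 fold change was 0.29 (SE 1.06, limma, unadjusted p = 0.794) with a 95% interval from -2.11 to 2.68, and its sign was that of T1, since it was -0.97 without T1 and 1.33 without T10. Without N9 it was -0.26. In the authors' table *CD68* shares an interval on chromosome 5 from 32473596 to 32594414 with 16 other entries, and the part of this overlap in its values was not tested.

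*CSF1R* (ENSCAFG00000018219) was at 27.3 FPKM (N1), 38.3 (N3), 21.0 (N8) and 8.43 (N9) in bone and at 60.8 (T1), 7.41 (T3) and 11.5 (T10) in tumor. T1 was again the highest, and T3 and N9 the lowest. The log2 fold change of -0.23 (SE 0.77, limma, unadjusted p = 0.768) turned positive without N3 (0.05), T3 (0.34) or T10 (0.06) and was -1.10 without T1. Its interval on chromosome 4 from 58980577 to 59055356 is shared with *HMGXB3*, which was also highest in T1, at 40.4 FPKM, and between 9.46 and 25.4 elsewhere; the part of this overlap was not tested.

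*CSF1* (ENSCAFG00000019798, chromosome 6 from 42028059 to 42045409), the ligand, was at 30.3 FPKM (N1), 17.8 (N3), 10.7 (N8) and 13.5 (N9) in bone and at 73.8 (T1), 6.53 (T3) and 5.66 (T10) in tumor. As deposited, T1 exceeded every bone sample and the other tumors lay below every bone sample. This split within the tumor group gave a log2 fold change of -0.19 (SE 0.84, limma, unadjusted p = 0.822). Without T1 *CSF1* passed as lower in tumor, at -1.33, and without N1, T3 or T10 the sign turned, at 0.08, 0.33 and 0.42. Ligand and receptor were of like level in each sample, with *CSF1* at 0.464 (N3) to 1.60 (N9) times *CSF1R* per length. The log2 ratio was -0.30 ± 0.82 (SD, n = 4) in bone and -0.26 ± 0.60 (SD, n = 3) in tumor (two-sided exact permutation test, p = 0.971, adjusted p = 0.971 over the 4 ratios). The sign of that difference turned without N3 (-0.22), N8 (-0.17), T1 (-0.23) or T3 (-0.01).

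*IL34*, the other ligand of CSF1R, did not pass at a log2 fold change of -1.05 (limma, unadjusted p = 0.156), and passed at -1.84 without T1. It was at 4.44 FPKM (N1), 10.45 (N3), 8.34 (N8) and 4.37 (N9) in bone and at 9.75 (T1), 1.35 (T3) and 0.870 (T10) in tumor. T3 and T10 therefore held the lowest levels of *CSF1* and *IL34* alike. Of the 8 myeloid growth factors and receptors looked up beside *CSF1* and *CSF1R*, 6 were tested and 0 passed, where 6.86% of all tested genes did. All 6 had negative log2 fold changes, as had 6946 of the 13507 tested genes, and their median was -0.88. *CSF2* and *CSF3*, the factors of granulocytes and macrophages, fell under the filter and were listed at 0 in 5 and 6 of the 7 samples. *SPI1*, the transcription factor of the myeloid lineage that acts on *CSF1R*, had a log2 fold change of -0.88 (limma, unadjusted p = 0.404), with 2.25 FPKM in N9, 15.2 in N1, 42.5 in N3 and 39.8 in N8 and, in tumor, 30.5 in T1, 3.79 in T3 and 4.71 in T10.

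T1 and N1, the highest samples of *CD68* and *CSF1*, were also those with the most osteoclast transcripts. All 9 matched osteoclast markers were highest in T1 and second highest in N1, an order found in 8.60% of all tested genes. The sum was 3576 FPKM in T1 and 1714 in N1, against 226 to 628 in the other bone samples, 481 in T3 and 527 in T10. *OCSTAMP*, a gene of osteoclast fusion, was listed at 0 in N8 and T10. FPKM of all genes summed to 1.12e+06 in T1 and 539648 in N1, and the order of T1 over N1 was not tested after rescaling. None of the 9 passed between the groups (0 by limma, 0 at an unadjusted p under 0.05), where 6.86% of all tested genes did, and their median log2 fold change was 0.12. The part of osteoclasts in the *CD68*, *CSF1R* and *CSF1* values was not tested. Osteoblast markers were highest in T1 or N1 in 9 of 9, as were 24.0% of all tested genes, and 4 of the 9 had T1 first and N1 second.

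*CD163* and *CD68* are both used to stain macrophages in tissue, yet their ratio differed more between samples than any other of the 4 ratios. Per length *CD163* stood at 0.0358 (N1), 0.915 (N3), 0.749 (N8) and 0.264 (N9) times *CD68* in bone and at 0.0249 (T1), 0.219 (T3) and 0.341 (T10) times it in tumor. The lowest ratios belonged to T1 and N1, and each group held both low and high samples. The mean log2 ratio was -1.70 ± 2.02 (SD, n = 4) in bone and -2.89 ± 2.02 (SD, n = 3) in tumor, a difference of -1.19 (two-sided exact permutation test, p = 0.400, adjusted p = 0.914 over the 4 ratios). It was -2.14 without N1 and -0.04 without T1.

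Both class A scavenger receptors among the 8 had higher means in tumor, each through a different tumor. *MSR1* (ENSCAFG00000006830, chromosome 16 from 39436753 to 39513280), which binds modified lipoproteins, was at 2.77 FPKM (N1), 21.6 (N3), 9.22 (N8) and 1.93 (N9) in bone and at 5.90 (T1), 11.7 (T3) and 36.3 (T10) in tumor. Only T10 exceeded N3, by 1.68-fold. This gave a log2 fold change of 1.06 (SE 0.83, limma, unadjusted p = 0.234), with a 95% interval from -0.81 to 2.93. With 1 sample left out it lay between 0.39 (without T10) and 1.62 (without N3).

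*MARCO* (ENSCAFG00000004913, chromosome 19 from 30996186 to 31034536), a receptor for bacteria and particles, was the lowest of the 8 genes in every sample but T3. It was at 0.589 FPKM (N1), 2.35 (N3), 2.27 (N8) and 0.298 (N9) in bone and at 1.48 (T1), 17.6 (T3) and 0.807 (T10) in tumor. T3 held 69.3% of the sum over the 7 samples and was 7.49 times N3, the next. The log2 fold change of 1.00 (SE 0.84, limma, unadjusted p = 0.260) rested on that sample and was -0.04 without T3. At levels near 1 FPKM the added pseudocount makes this fold smaller, and with a pseudocount of 0.1 it was 1.39.

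Among 10 other scavenger receptors, all tested, 1 passed, where 6.86% of all tested genes did, and 3 had positive log2 fold changes, with a median of -0.85. *COLEC12*, a collectin with a collagen-like stalk as in *MSR1* and *MARCO*, rose to 64.8 ± 39.9 FPKM (SD, n = 3) in OSA tumor from 18.4 ± 21.0 FPKM (SD, n = 4) in non-tumor bone, a log2 fold change of 2.08 (SE 0.82, limma, unadjusted p = 0.0308, adjusted p = 0.693). N1, at 49.6 FPKM, lay above T3 at 23.1, with T1 at 68.7 and T10 at 103, and N3, N8 and N9 between 3.94 and 10.3. The call was lost without N3 (1.98), N8 (1.61), N9 (2.002), T1 (1.92) or T10 (1.63). It was also lost with N8 and N9 both left out (1.25) and with the sample number as a fixed replicate block (0.81). *CD5L*, a soluble scavenger protein of tissue macrophages, was at 32.0 and 28.9 FPKM in N3 and N8 and between 0.292 and 2.39 in the other samples, a log2 fold change of -2.12 (limma, unadjusted p = 0.0869) that passed without N1 (-2.85) or N9 (-2.70). Partners of CD14 in the sensing of bacterial lipid were followed although *CD14* itself was not found: 0 of 10 passed, where 6.86% of all tested genes did, with a median of -0.30. *TLR4*, the signalling receptor, was at -0.71 (95% interval -2.45 to 1.02) and its partner *LY96* at -0.21 (95% interval -2.001 to 1.59), which turned positive without N3 (0.12), N8 (0.31) or T3 (0.18).

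**Figure D4:**
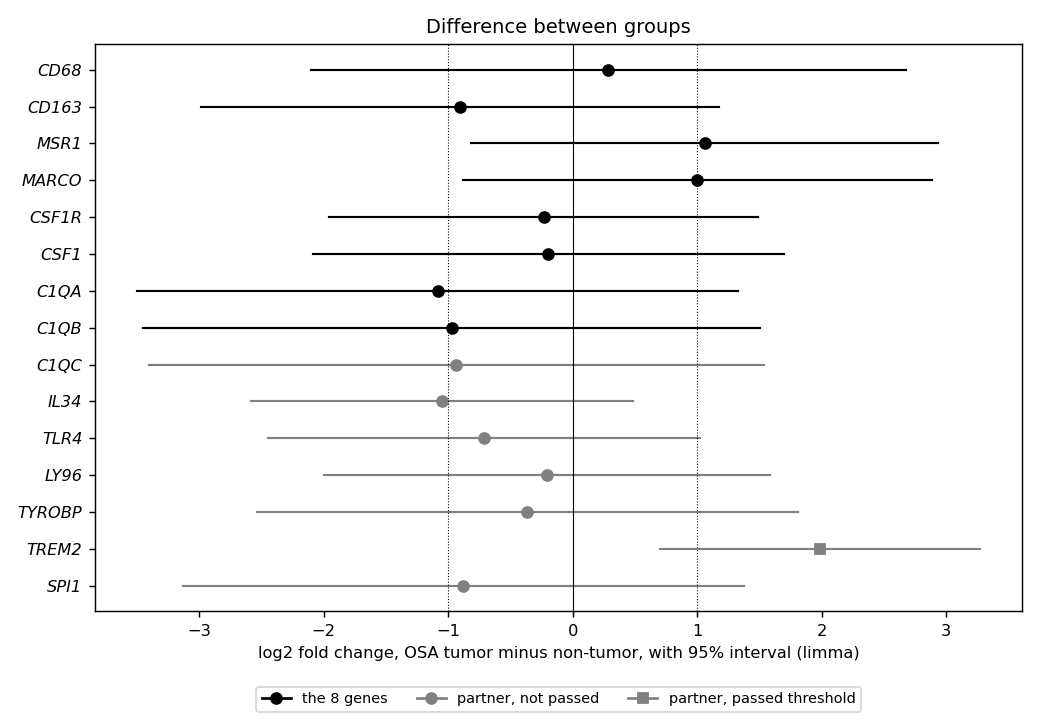
Log2 fold change of OSA tumor minus non-tumor (x axis) with its 95% interval from limma for the 8 genes (black) and 7 partner genes (grey); dotted lines mark a fold change of 2. All of the black intervals cross 0, and of the partners TREM2 alone, at 1.99, does not.

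Outside the 8 genes, 18 of 19 further macrophage markers were matched and tested. As with the C1q chains, 14 of the 18 were highest in N3 or N8, against 21.3% of all tested genes, and 11 of the 18 were lowest in N9, against 16.1%. The other 4, *TREM2*, *MERTK*, *CD86* and *CTSS* (the last pair named after their values were seen), were highest in T10. Of the 8 genes, 3 were highest in N3 or N8 and 5 lowest in N9. *TYROBP*, the adaptor that passes on the signal of many myeloid receptors, was the most abundant on average at 539 FPKM in N3 and 390 in N8, with 66.3 in N1, 31.9 in N9, 111 in T1, 80.2 in T3 and 162 in T10. Its log2 fold change was -0.36 (95% interval -2.54 to 1.81) and turned positive without N3 (0.26) or N8 (0.11).

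Of these 18, 1 passed, where 6.86% of all tested genes did. *TREM2*, a lipid receptor that signals through TYROBP, passed as higher in OSA tumor in the fit without pairing. It was at 4.12 FPKM (N1), 4.54 (N3), 3.24 (N8) and 0.689 (N9) in bone and at 12.6 (T1), 9.48 (T3) and 22.6 (T10) in tumor. Every tumor was above every bone sample, N3 and N8 among them, where the groups did not overlap in 5.85% of all tested genes. The means were 14.9 ± 6.84 FPKM (SD, n = 3) in tumor and 3.15 ± 1.73 FPKM (SD, n = 4) in bone. The log2 fold change was 1.99 (SE 0.57, limma, unadjusted p = 0.00659, adjusted p = 0.693, two-sided exact permutation p = 0.0571). The call was lost in 1 of the alternative fits tried, at 1.17 with the sample number as a fixed replicate block. That fit sets T1 against N1 and T3 against N3, although no source says that a number marks 1 dog. *MERTK*, a receptor for the uptake of dying cells, did not pass at 1.39 (limma, unadjusted p = 0.0538), with 42.6 FPKM in T10, 13.5 in T3, 11.7 in T1 and 3.103 to 12.7 in bone, but did without N1 (1.67) or T1 (1.72). It was 0.83 without T10 and 0.73 without N8 and N9.

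**Figure D5:**
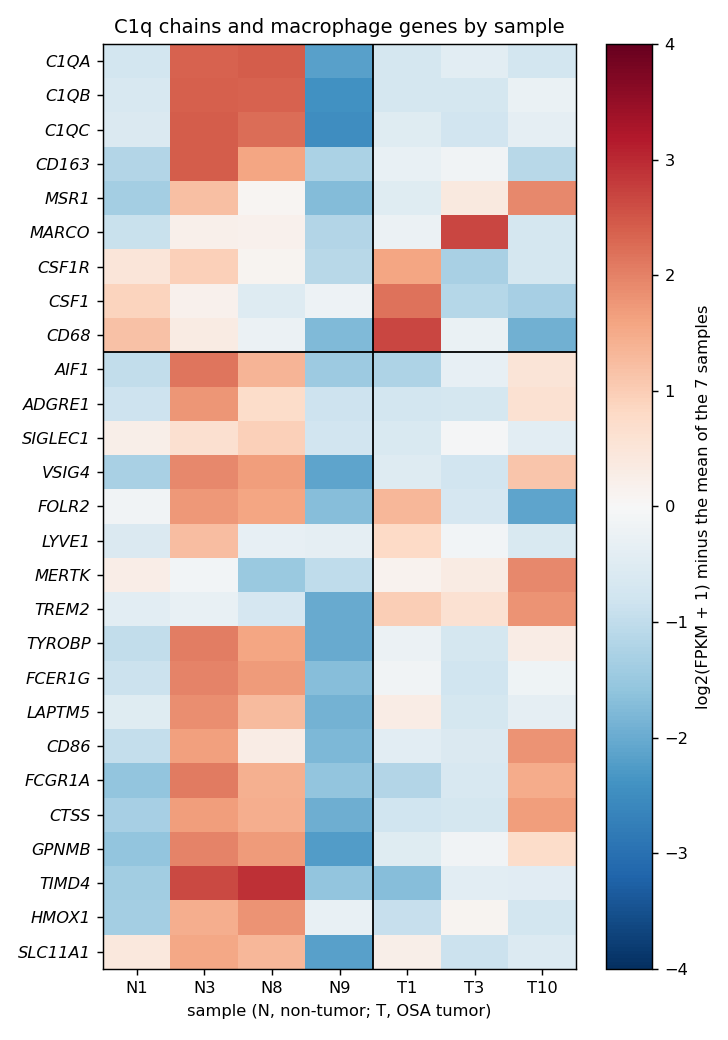
Log2(FPKM + 1) minus the mean of the 7 samples (colour) for the 3 C1q chains and 6 of the 8 genes beside them (above the line) and for 18 further macrophage markers (below it), by sample. Most rows are high in N3 and N8 and low in N9, CD68, CSF1R and CSF1 are highest in T1, and TREM2 is above its bone levels in all 3 tumors.

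Likeness between genes was measured as the mean absolute difference of their log2(FPKM + 1), each centred over the 7 samples. Among the 36 pairs of the 8 genes and *C1QC* the median was 1.29. The closest pair was *C1QB* and *C1QC* at 0.10, then *C1QA* and *C1QB* at 0.17, *C1QA* and *C1QC* at 0.23, and *CD163* with *C1QA* at 0.47. *CSF1R* and *CSF1* stood at 0.58, and *CSF1* with *C1QB* was the most unlike pair at 1.89. Over all tested genes with a symbol, the nearest to *C1QA* and to *C1QB* were the other chains, followed by *LST1* for *C1QA* (0.27) and *C1QB* (0.20). The gene nearest to *CD163* was *IL1R2* (0.22), to *MSR1* *HAVCR1* (0.24), to *MARCO* *STMN3* (0.15), to *CSF1R* *SEMA4B* (0.16), to *CSF1* *TNFRSF25* (0.26) and to *CD68* *SLC12A7* (0.26). The 5 genes nearest to the mean profile of the 8 were *QPCT* (0.19), *ETV5* (0.20), *FTL* (0.21), *FXYD5* (0.21) and *TMCO4* (0.21).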

How the data were processed

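Total RNA of 4 non-tumor bone and 3 OSA tumor samples was sequenced in pairs of reads (HiSeq). After trimming by Trim Galore, the authors aligned to the CanFam3.1 build (Ensembl iGenomes annotation) in Tophat2 and deposited FPKM per gene and sample from Cufflinks/Cuffdiff; versions and the scaling between libraries are not given in the sources used here. Their comparison table (group FPKM, fold changes, test statistics, p-values and q-values) was used only for the gene intervals, with 1 added to each start so that positions count from 1.

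All 7 deposited sample columns were used and 0 left unused. Values were taken as log2(FPKM + 1) for the 13507 genes averaging 1 FPKM or more and fitted with limma 3.58.1 (R 4.3.3, mean-variance trend), with Benjamini-Hochberg adjustment over all tested genes; 0 reached an adjusted p under 0.05. The fit was tested on simulated data. Exact permutation tests took the 35 assignments of 4 against 3 (Python 3.11.15, scipy 1.17.1); single values were tested two-sided. Relative depth, read from the most frequent ratio of low values, matched through N1 within 0.01 (log2) in 17 of 21 pairs. Depth in counts is unknown, so no counting intervals are given.

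The 8 genes, their partners and the marker lists were chosen with earlier results of these data known. Named beside the 8 were C1QC, IL34, TLR4, LY96, TYROBP, TREM2 and SPI1, at most 2 genes of each further list by smallest p, and the 5 genes closest to the mean profile; nearest genes of single members, and genes given only for their zeros or top sample, were added after their values were seen. The ratio with MRC1 was not formed. Alternatives were pseudocounts of 0.1 and 0.01, other filters and scalings, no trend, arrayWeights, the sample number as a block, each sample left out, and, chosen after seeing the data, N8 and N9 left out. T, NK and B lymphocyte, endothelial, mannose receptor and transcription factor lists had 1 of 7, 1 of 7, 3 of 7, 0 of 2 and 0 of 8 tested genes past the threshold, beside 6.86% of all tested genes.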

Additional observations from a re-analysis of the deposited data

How the results depend on the processing

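The number of the 8 genes past the threshold was 0 in every fit over all 7 samples and without N8 and N9, and 0 to 2 with 1 sample left out. Over all tested genes, 926 passed; the number was 1857 with arrayWeights, 231 with the sample number as a fixed replicate block, 184 without N8 and N9, and 319 (without N8) to 1997 (without N1) with 1 sample left out. Rescaling to the same sum moved the median of all genes by 0.15 (log2), and each of the 8 kept its sign there. The log2 fold change of *CD68* was -0.083 with arrayWeights and -0.59 without N8 and N9. With 1 sample left out it ran from -0.97 to 1.33 for *CD68*, -0.042 to 1.64 for *MARCO*, -1.10 to 0.34 for *CSF1R*, -1.33 to 0.42 for *CSF1*, -1.08 to 0.26 for *TYROBP* and -0.66 to 0.31 for *LY96*, while *CD163*, *MSR1*, *C1QA* and *C1QB* kept their sign. The log2 ratio differences ran from -0.28 to 0.10 (*C1QA* to *C1QB*), -0.11 to 0.067 (*C1QB* to *C1QC*), -2.14 to -0.04 (*CD163* to *CD68*) and -0.23 to 0.36 (*CSF1* to *CSF1R*). N1 and T1 share a number, as do N3 and T3. Their deviations from the group means correlated at 0.42 and 0.21 across genes, but no source says that a number marks 1 dog. With the fixed replicate block, over these 2 pairs, *TREM2* (1.17, against 1.60 to 2.25 with 1 sample left out) and *COLEC12* (0.81) did not pass and the ratio differences were 0.20 (*C1QA* to *C1QB*) and 0.52 (*CSF1* to *CSF1R*); with a random replicate block 1062 genes and 0 of the 8 passed. The fold changes of *MSR1* and *MERTK* were 0.02 and 0.16 in the fixed block and 0.72 and 0.98 in the random block. *C3*, *CD5L*, *MERTK* and *IL34* passed with arrayWeights (-2.73, -2.99, 1.77 and -1.43), *C3* with either block (-2.05 and -2.15) and *CD5L* with the random block (-2.04). The causes of these changes were not tested. At 4 against 3 samples, the 95% intervals of the 8 genes leave differences of over 2-fold possible in either direction for all but *MSR1* and *MARCO*, whose lower bounds are -0.81 and -0.88.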

Other observations

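Some macrophage genes were also set against each other within a sample, as pairs chosen after their values were seen and therefore given without a test. *TREM2* per unit of *C1QA* stood at 0.131 (N1), 0.0163 (N3), 0.0113 (N8) and 0.0629 (N9) in bone and at 0.390 (T1), 0.241 (T3) and 0.714 (T10) in tumor, so that all tumors lay above all bone samples. Against its adaptor *TYROBP*, *TREM2* was at 0.0622 in N1 and 0.00831 to 0.0216 in the other bone samples, and at 0.113 to 0.139 in tumor. *MSR1* per unit of *CD163* was 0.235 to 0.553 in bone and 0.594 in T1, 1.04 in T3 and 6.86 in T10, where T1 and N1 were nearly level. *MERTK* per unit of *C1QA* overlapped between the groups, from 0.0108 to 0.426 in bone and from 0.343 to 1.35 in tumor.

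The gene nearest in pattern to *CSF1R* after *SEMA4B* and *CYTH4* was listed as *GPIIIA* (0.21), a name of the integrin beta 3 chain of osteoclasts and platelets, which the osteoclast list sought under its other symbol and did not find.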
